A study of Mus musculus with 31 samples.

Results

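The genes described here were 33 neuronal and synaptic genes of the mouse, taken from a written list of genes for the neuronal cytoskeleton, vesicle release, transmitter handling, excitability and secretory granules. Each gene was read from the probe set (the group of short probes that reports a transcript on the array) that names this gene alone and has the highest mean over all arrays. By this rule 32 of the 33 genes were measured, among 18194 genes in all, and Grin1, the obligatory subunit of NMDA receptors, was not analysed here. The rule for members used no measured value, but the list was written with earlier results of these data known.

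The study compared neural stem cells (NSC) of the young mouse brain with cancer stem cells (CSC) grown from mouse medulloblastoma, a tumour of the cerebellum. Every tumour sample is labelled as derived from a Ptch het mouse, with 1 mutant and 1 wild-type copy of Ptch, the receptor that restrains Hedgehog signalling. Whether the tumours or lines kept the wild-type copy was not measured here. All mice were C57BL/6 per the labels. The tumours fell into the genotypes Ptch het p53 wt, with 8 CSC lines and the 8 tumour tissues matched to them, and Ptch het p53 het, with CSC cultures of tumours 27 and B, each on 3 technical arrays that were averaged. The NSC came from the cerebellar white matter, the IV ventricle and the subventricular zone (SVZ) at postnatal day 7, with 3 cultures each. All NSC and CSC were grown as neurospheres in EGF and FGF2, growth factors that favour dividing cells over neurons, and were collected a few days after plating. The tissue is whole tumour and can hold cells of the cerebellum around it, the p53 het cultures have no matched tissue, and the labels do not give the age of the tumour-bearing mice. Whether a line grew from 1 cell or from many is not given in the sources used here.

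Neurons differ from dividing progenitors in a beta-tubulin and neurofilaments that build the axon, in SNARE proteins and synaptotagmins that fuse transmitter vesicles with the membrane, and in transporters that load glutamate or GABA into those vesicles. Medulloblastoma driven by Hedgehog signalling arises from precursors of cerebellar granule neurons, the small excitatory cells that use glutamate. In cells that are not neurons, the repressor REST (gene Rest) binds an element in many neuronal genes and keeps them silent.

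All values are log2 intensities, on which a difference of 1 is a factor of 2, and each probe set binds with its own strength, so levels were compared between samples of a gene and never between genes. The 31 arrays gave 27 samples after averaging, and array medians lay between 3.166 and 3.324. As a reading guide for a silent gene, 46 measured genes of liver, gut, skin, muscle and other tissues outside the brain were used. The 95th percentile of their values was 4.27, and a gene was said to read above the guide in a group where every sample did. A difference whose lower side is at or below the guide sets a signal against background and does not give the fold of the RNA. In whole tissue, fewer neurons and less RNA per neuron cannot be told apart.

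Of the 32 genes, 21 read above the guide in all 8 tumour tissues, 10 in all 8 p53 wt lines, 13 in all 6 hindbrain NSC (IV ventricle and cerebellum together) and 7 in both p53 het cultures. Of all 18194 genes, 47.1%, 45.9%, 48.0% and 48.9% did so in the same groups. The genes above the guide in all 19 cultures were Cplx1, Gap43, Map2, Rtn1 and Vamp2, as did 43.0% of all genes, and these 5 also read above the guide in all 8 tissues. With the guide at the 99th percentile (5.29) the 5 became 3, since Cplx1 and Vamp2 read 5.18 and 5.02 in p53 het tumour B. Stmn2, Slc17a6, Snap25, Syp and Chgb read above the guide in every tissue and at or below it in every culture. Slc17a7, Slc32a1, Gad2, Grin2b and Camk2a were at or below the guide in all 27 samples.

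**Figure D1:**
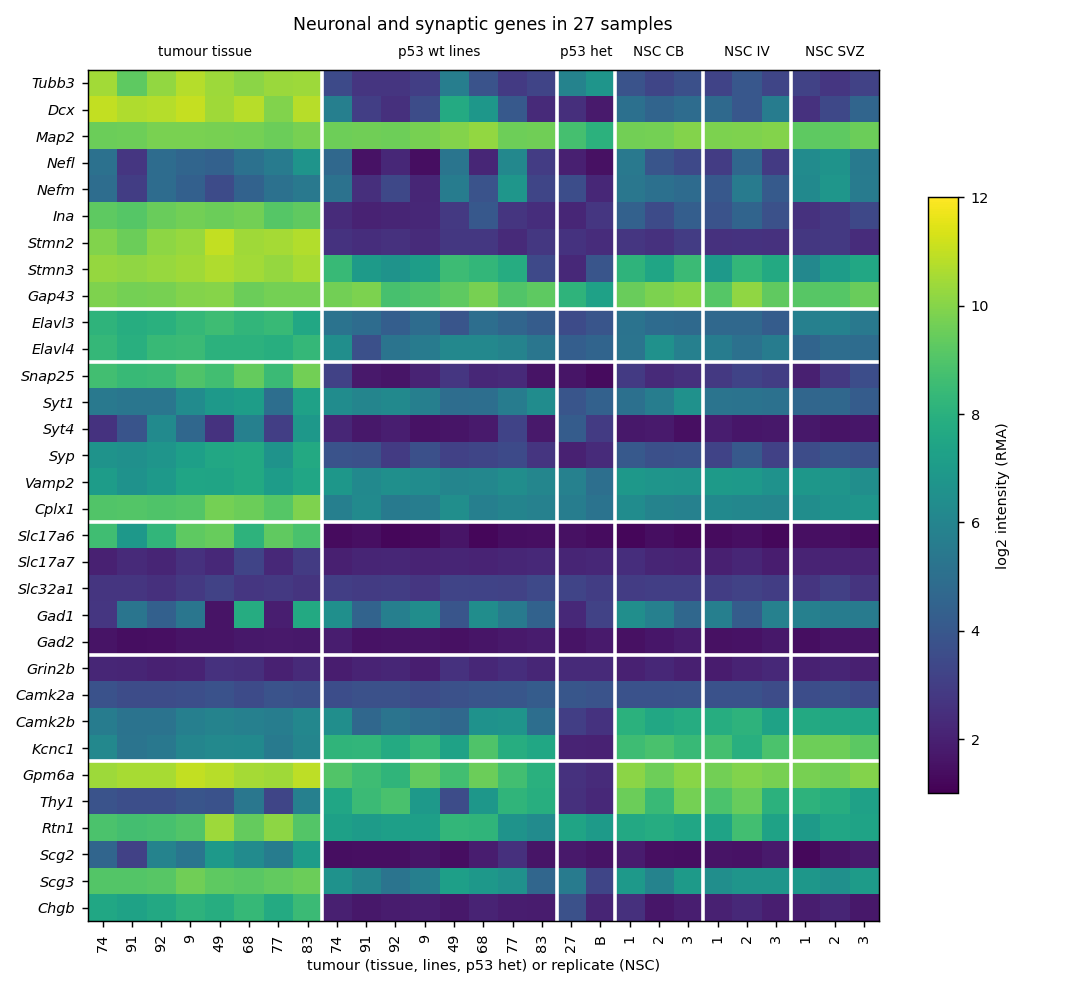
Colours give the log2 intensity of 32 neuronal and synaptic genes (rows, grouped by role) in 27 samples (columns, grouped by tissue, culture and region, with p53 het tumours averaged over 3 arrays). The bright block of the 8 tissues turns dark in the cultures for Stmn2, Slc17a6, Snap25, Ina and Chgb, while Map2 and Gap43 stay bright in all 27 samples.

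The first comparison asked which neuronal genes a tumour keeps when its cells are grown as a line. In the p53 wt lines, 21 of the 32 genes were lower and 3 higher than in the matched tissue (limma with the tumour as a block, Benjamini-Hochberg adjusted over 18194 genes), which leaves 8 that were not called. Among all genes 49.6% were called, 26.6% higher and 23.1% lower. The median log2 difference was −1.95 over the 32 genes and 0.06 over all genes. With a minimum of 2-fold added, 18 were lower and 2 higher, against 8.01% and 7.17% of all genes (15.2% in either direction).

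Markers of other cells moved with this contrast. All 6 listed microglia markers were lower in the lines (median log2 difference −3.87), with a summed log2 level of 8.08 to 9.37 in the tissues and 4.41 to 4.77 in the lines, where none read above the guide. Of the microglia markers, P2ry12 and Itgam were at or below the guide in every tissue as well. All 5 endothelial markers were lower, with sums of 6.08 to 6.62 and 4.41 to 4.75. Of these, 4 (Pecam1, Cdh5, Kdr and Tek) were at or below the guide in every tissue too. The differences of these microglia and endothelial genes are therefore within background. All 4 listed markers of mature granule neurons were lower too, with sums of 10.48 to 11.47 and 3.87 to 5.13. Of these, Neurod1 and Cbln1 read above the guide in every tissue. Gabra6 and Cbln3 were under the guide in tissues 49, 77, 74 and 92, at 1.51 to 3.65 and 1.88 to 3.67, and above it in the other tissues. Of 6 neural stem cell markers 4 were higher and 2 lower (median 2.34), at 10.60 to 11.47 and 13.21 to 13.63. Glial lists were split. Of 8 astrocyte markers 2 were higher and 4 lower (median −0.64). Of 6 markers of oligodendrocyte precursors 3 were higher and 3 lower (median 0.65). Their part in the neuronal differences was not tested.

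Of the 9 genes of the neuronal cytoskeleton and growth cone, 7 were lower in the lines and 0 higher. Stmn2, a stathmin that regulates microtubules in growing axons, read from 9.52 through a median of 10.37 to 10.98 in the tissues and from 2.29 through 2.59 to 2.80 in the lines. No line came near any tissue. The log2 difference was −7.74 ± 0.13 (SE, 8 pairs, limma adjusted p = 1.35e-10).

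Tubb3, the neuronal beta-tubulin, read 9.27, 10.37 and 10.79 (lowest, median, highest) in the tissues and 2.69, 3.13 and 5.69 in the lines. The groups did not overlap, and the line of tumour 49 stood above the other 7 lines. The difference was −6.81 ± 0.29 (limma adjusted p = 4.36e-08). Ina, the neurofilament subunit alpha-internexin of young neurons, lay between 9.09 and 9.67 in the tissues and between 2.05 and 4.03 in the lines, a difference of −6.79 ± 0.18 (limma adjusted p = 1.36e-09).

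Dcx, the microtubule protein doublecortin of migrating neuroblasts, was lost unevenly. Its tissues lay between 9.93 and 11.05. The lines of tumours 49, 68 and 74 read 7.73, 6.82 and 5.75, and the other 5 lines read 4.06 or less. All lines were still below all tissues, with a mean difference of −6.21 ± 0.63 (limma adjusted p = 1.86e-05). Line 49 was also the line with the highest Tubb3, and it read 4.19 for Neurod1, a transcription factor of granule neurons, where the other 7 lines read between 1.15 and 2.32. Neurod1 was between 10.04 and 10.55 in the tissues.

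Stmn3, another stathmin, fell by less. It read 10.16, 10.38 and 10.67 in the tissues and 3.41, 7.47 and 8.54 in the lines (lowest, median, highest). In line 83 alone it was at or below the guide. The difference was −3.25 ± 0.51 (limma adjusted p = 3.92e-04). Its probe set carries the x suffix that marks probes shared with other sequences, and the gene's other probe set gave −3.32 ± 0.49.

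Map2, which marks dendrites, did not follow. It read between 9.51 and 9.80 in the tissues and between 9.57 and 10.20 in the lines, overlapping throughout, with a difference of 0.06 ± 0.08 (limma adjusted p = 0.58). Of its dimmer probe sets 2 were not called and 1 was lower in the lines, at 6.63 against 7.37 (limma p adjusted over all probe sets = 5.75e-04), so the probe sets of Map2 disagree. Gap43, the growth-associated protein of axon tips, was 9.55 to 9.99 in the tissues and 8.79 to 9.82 in the lines, and its difference of −0.46 ± 0.14 (limma adjusted p = 0.0236) was lost in 4 of the 8 fits that left out 1 tumour, with adjusted p up to 0.0615.

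The neurofilament genes Nefl and Nefm were variable on both sides. Nefl ran from 2.76 to 6.69 in the tissues and from 1.42 to 6.14 in the lines, and its call at −1.58 ± 0.53 (limma adjusted p = 0.0309) was lost without tumour 92, 9, 68 or 83. Nefm ran from 3.01 to 5.46 and from 2.18 to 6.78 and was not called (−0.38 ± 0.49, limma adjusted p = 0.55). In both genes the lines of tumours 74, 49 and 77 were the 3 highest lines and the tissue of tumour 91 was the lowest tissue.

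Both neuronal RNA-binding genes fell. Elavl3, a Hu protein that stabilises neuronal messages, read 7.58 to 8.60 in the tissues and 3.90 to 5.20 in the lines, at −3.52 ± 0.18 (limma adjusted p = 1.33e-07). Elavl4, its relative HuD, read 7.89 to 8.49 and 3.67 to 6.44, at −2.64 ± 0.26 (limma adjusted p = 1.46e-05). Tissues and lines were apart in both, and line 91 had the lowest Elavl4.

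Among the genes of vesicle release, 5 of 6 fell and Syt1 was not called. Snap25, a SNARE protein of the presynaptic membrane, read 8.41, 8.66 and 9.67 in the tissues and 1.60, 2.15 and 3.17 in the lines, at −6.65 ± 0.24 (limma adjusted p = 1.40e-08). Every line was at background. Syp, the vesicle membrane protein synaptophysin, lay between 6.53 and 7.69 in the tissues and between 2.71 and 3.80 in the lines, at −3.76 ± 0.24 (limma adjusted p = 8.04e-07).

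Cplx1, a complexin that clamps and times fusion, fell from between 8.95 and 9.86 to between 5.50 and 6.44, and so stayed above the guide in every line (−3.39 ± 0.12, limma adjusted p = 1.37e-08). Vamp2, the SNARE protein of the vesicle, was also kept, at 6.61 to 7.70 in the tissues and 6.01 to 6.82 in the lines. Its values overlapped, and its difference was −0.92 ± 0.16 (limma adjusted p = 8.95e-04). Another probe set of Vamp2 was not called (−0.14 ± 0.25).

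The synaptotagmins, calcium sensors of the vesicle, did not move together. Syt1 read between 4.99 and 7.28 in the tissues and between 4.93 and 6.36 in the lines, with no call (−0.32 ± 0.38, limma adjusted p = 0.517). Syt4 spread from 2.59 to 6.85 in the tissues and was between 1.52 and 3.21 in the lines (−2.50 ± 0.58, limma adjusted p = 0.00472). Tissues 74, 49 and 77 lay below the highest line, and the Syt4 call was lost in the 4 tumours whose tissue and line carry different date marks (limma adjusted p = 0.0862).

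**Figure D2:**
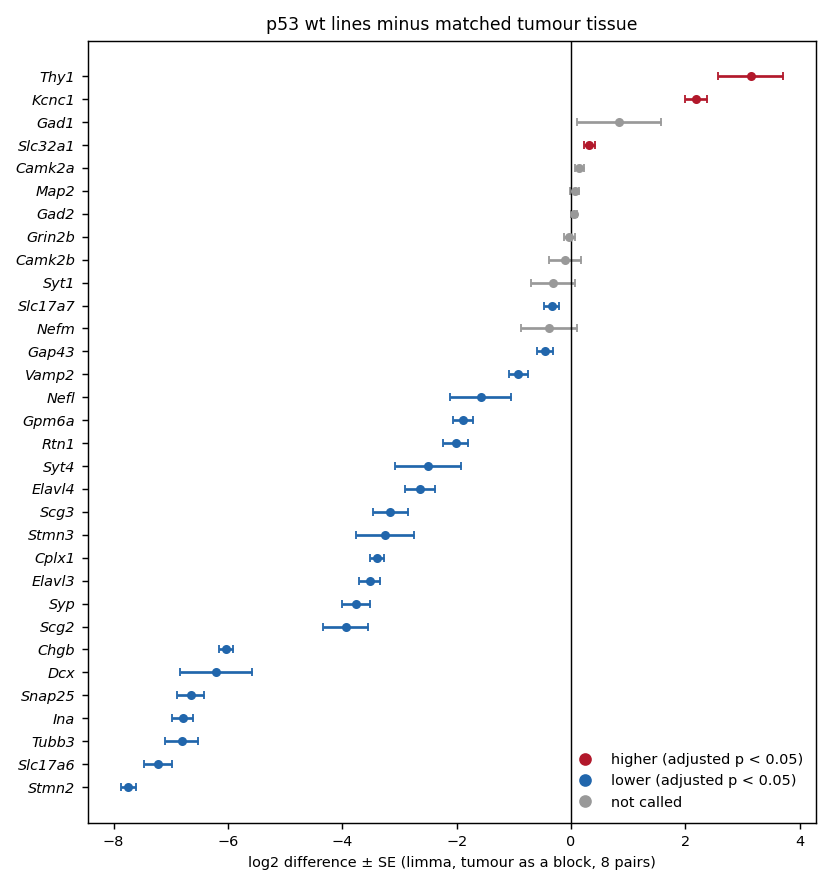
Points give the log2 difference between the p53 wt lines and their matched tissues for 32 genes (horizontal axis, log2 units), with the SE of the limma fit over 8 pairs; colour marks the call at an adjusted p under 0.05. Stmn2 lies farthest to the left at −7.74 and Thy1 farthest to the right at 3.14.

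Among the genes of transmitter handling, Slc17a6 was the main loss. Slc17a6, the vesicular glutamate transporter VGLUT2, read 6.86, 8.73 and 9.44 (lowest, median, highest) in the tissues and 1.19, 1.37 and 1.63 in the lines. The line values were those of a silent gene in all 8 tumours. The difference was −7.22 ± 0.25 (limma adjusted p = 9.86e-09). Slc17a7, the glutamate transporter VGLUT1 of mature granule neurons, and Slc32a1, the GABA transporter of inhibitory vesicles, were at or below the guide everywhere. Their calls, −0.34 ± 0.13 and 0.32 ± 0.09 (limma adjusted p = 0.047 and 0.0118), are therefore differences within background, and probe sets of Slc32a1 disagreed in direction.

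Gad1 and Gad2 encode the enzymes that make GABA. Gad2 lay between 1.41 and 1.86 in all tissues and lines. Gad1 was 3.89, 5.62 and 6.48 in the lines (lowest, median, highest), above the guide in all but line 49, whereas the tissues ran from 1.58 to 7.79 (0.84 ± 0.73, limma adjusted p = 0.368). Without tumours 68 and 83, whose tissues were the highest, Gad1 was higher in the lines at 1.89 (limma adjusted p = 0.0228), an alternative added after the data were seen.

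Of the measured genes for receptors, kinases and channels, only Kcnc1 was called. Kcnc1, the fast potassium channel Kv3.1, read 5.23, 6.01 and 6.24 in the tissues and 7.33, 8.02 and 8.96 in the lines. Every line exceeded every tissue, at 2.19 ± 0.19 (limma adjusted p = 5.44e-06). Of its other probe sets 1 gave 1.57 ± 0.22 and 2 were not called (−0.12 ± 0.27 and 0.08 ± 0.08).

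Camk2b, a kinase subunit of the postsynaptic density, was 5.21 to 6.09 in the tissues and 4.67 to 6.71 in the lines and was not called (−0.11 ± 0.28). Camk2a, a kinase subunit, and Grin2b, an NMDA receptor subunit, were at background on the probe sets used. Dim probe sets of Grin2b read 2.76 against 0.92 and 2.25 against 1.27, both higher in tissue (limma p adjusted over all probe sets = 8.62e-05 and 6.12e-04). Those levels too are under the guide.

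Of the 6 genes for membrane proteins, the reticulon and the granins, 5 fell and Thy1 rose. Thy1, a surface glycoprotein of mature projection neurons that other cells carry too, read 3.28, 3.78 and 5.77 in the tissues and 3.54, 7.71 and 8.84 in the lines. Line 49 alone was as low as the tissues, and the other 7 lines exceeded all 8. The difference was 3.14 ± 0.57 (limma adjusted p = 0.00103), 4.20 in the 4 tumours whose tissue and line share a date mark (limma adjusted p = 3.31e-04) and 2.08 in the 4 that do not (limma adjusted p = 0.0936).

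Gpm6a, a membrane glycoprotein of growth cones, fell less, from a median of 10.55 in the tissues to 8.67 in the lines, with the lowest tissue at 10.39 and the highest line at 9.52 (−1.89 ± 0.18, limma adjusted p = 1.24e-05). Rtn1, a reticulon of the neuronal endoplasmic reticulum, fell from between 8.70 and 10.39 to between 6.32 and 8.29 (−2.02 ± 0.22, limma adjusted p = 3.42e-05). Both stayed far above the guide in every line.

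The granins, cargo proteins of dense-core secretory granules, were lost more fully. Chgb fell from between 7.34 and 8.49 to between 1.70 and 2.08 (−6.03 ± 0.12, limma adjusted p = 2.33e-10), and Scg2 from between 3.14 and 7.06 to between 1.39 and 2.52 (−3.94 ± 0.39, limma adjusted p = 1.48e-05). Scg3, which sorts granins into granules, fell from between 9.04 and 9.60 to between 4.64 and 7.23 and stayed above the guide (−3.16 ± 0.30, limma adjusted p = 1.06e-05).

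**Figure D3:**
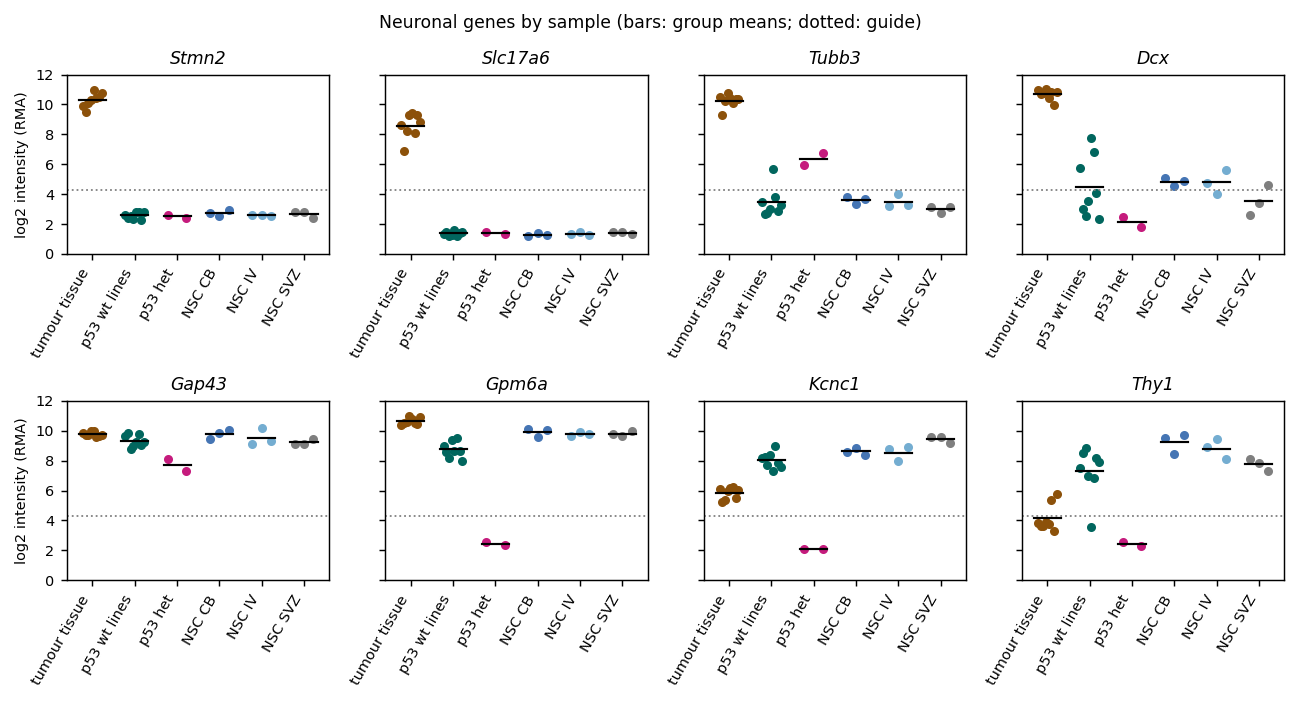
Each point is the log2 intensity of a sample (vertical axis) for 8 genes in tissue, p53 wt lines, p53 het cultures and the NSC of 3 regions; bars are group means and the dotted line is the guide at 4.27. Stmn2 and Slc17a6 are high only in tissue, and Tubb3 is higher in both p53 het cultures than in the other cultures. Gpm6a, Kcnc1 and Thy1 are high in NSC and below the guide in both p53 het cultures.

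Tumour tissue was also set against the hindbrain NSC. Here 18 of the 32 genes were higher and 4 lower in tissue, and of all genes 52.4% were called, 23.7% higher and 28.7% lower. This comparison shares its tissues with the one above. No tissue array shares a date mark with an NSC array, so tissue and date cannot be told apart here. The genes higher in tissue included Stmn2 (7.65 ± 0.18), Slc17a6 (7.27 ± 0.31), Tubb3 (6.70 ± 0.19) and Snap25 (6.05 ± 0.24), with limma adjusted p of at most 2.76e-12. The genes lower in tissue were Thy1 (−4.87 ± 0.37), Kcnc1 (−2.74 ± 0.18), Camk2b (−2.13 ± 0.14) and, within background, Slc32a1 (−0.26 ± 0.09).

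The 8 tissues were alike in some neuronal genes and far apart in others. Map2 varied by 0.12 (SD, n = 8), Gap43 by 0.15, Stmn3 by 0.18 and Scg3 by 0.21. Gad1 varied by 2.41, Syt4 by 1.69, Scg2 by 1.29 and Nefl by 1.11. Gad1 read 1.58, 1.91 and 2.74 in tissues 49, 77 and 74. It read 4.37, 5.32 and 5.27 in tissues 92, 9 and 91, and 7.79 and 7.70 in tissues 68 and 83.

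Markers of cells of the mature cerebellum ran in nearly this order. Pcp2, a gene of Purkinje cells, was 2.20, 2.38 and 2.88 in tissues 49, 77 and 74, 4.21, 6.06 and 6.23 in tissues 92, 9 and 91, and 8.34 and 8.58 in tissues 68 and 83. The Purkinje list (3 measured genes) had a summed log2 level between 3.85 and 9.91 in the tissues and between 3.25 and 3.74 in the p53 wt lines, where Pcp2, Calb1 and Car8 all stayed under the guide. Of the 4 listed genes of mature granule neurons, Gabra6 and Cbln3 followed the same order in the tissues. Cbln1 did not, at 9.18 in tissue 49 against 8.58 in tissue 92, although it too was highest in tissues 68 and 83, at 9.68 and 9.88. Neurod1, the other listed gene, and Stmn2 and Slc17a6 did not follow it either: Stmn2 was highest in tissue 49, at 10.98, where Pcp2 was lowest.

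Thy1 was highest in tissues 68 and 83, at 5.35 and 5.77, against 3.28 to 3.89 in the other 6, and Syt1 was also highest there, at 7.13 and 7.28, with tissue 49 close behind at 6.97. Tissues 68 and 83 share a date mark of their own, so date and tumour cannot be told apart. The part of other cells in these levels was not tested. Without both tumours, 8097 of the 18194 genes were called between lines and tissue, and of the 32 genes 19 were lower in the lines and 3 higher.

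**Figure D4:**
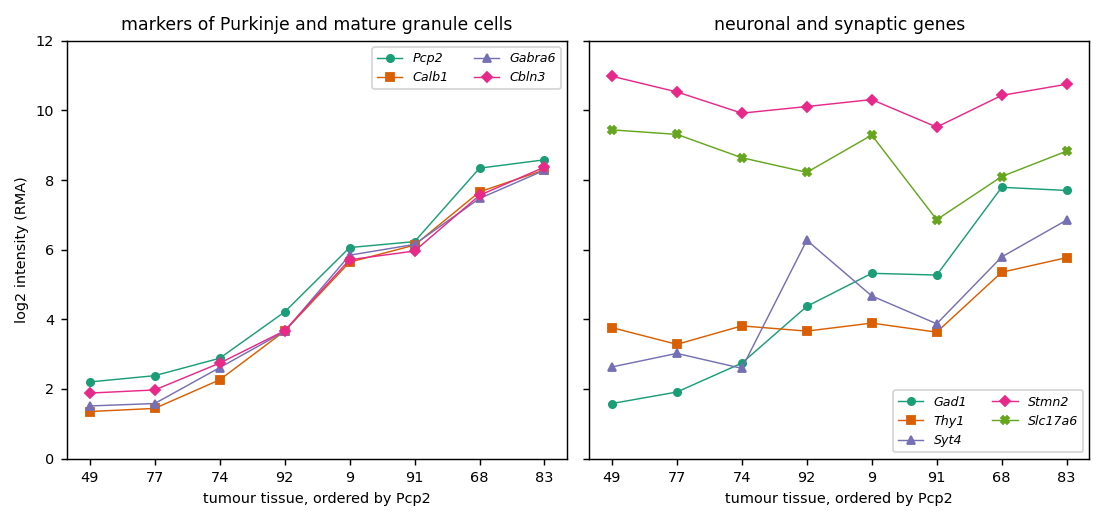
Log2 intensity (vertical axis) in the 8 tumour tissues, ordered by Pcp2, of 4 markers of mature cerebellar cells on the left and of 5 neuronal and synaptic genes on the right. Gad1 climbs from 1.58 to 7.79 with the markers, Thy1 is raised only in tissues 68 and 83, and Stmn2 and Slc17a6 stay high throughout.

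The second question was whether tumour lines differ from NSC of the hindbrain in these genes. The p53 wt lines share no date mark with any NSC array, so group and date cannot be told apart. Of the 32 genes, 4 were lower in the p53 wt lines and 0 were higher (limma over 19 cultures), and 7 had an unadjusted p under 0.05. Among all genes 9.56% were called, 3.51% higher and 6.06% lower.

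Camk2b read 7.33 to 8.09 in the 6 hindbrain NSC and 4.67 to 6.71 in the 8 lines. The groups did not overlap (−2.24 ± 0.32, limma adjusted p = 5.32e-04). Gpm6a read 9.57 to 10.10 in the NSC, above every line (−1.09 ± 0.20, limma adjusted p = 0.00274). Ina was 3.50 to 4.53 in the NSC, near the guide, and 2.05 to 4.03 in the lines, which overlap (−1.45 ± 0.27, limma adjusted p = 0.00335). Vamp2 was lower by less than 1, and its call was lost in 4 of the fits that left out 1 culture.

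Thy1 was 8.08 to 9.70 in these NSC and was not called against the lines (−1.73 ± 0.61, limma adjusted p = 0.0864), but it was called without line 49 (−1.20, limma adjusted p = 0.031). Stmn2, Slc17a6 and Scg2 were at background in all NSC and all p53 wt lines.

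The third question was how the p53 het cultures compare with the p53 wt lines. Of the 32 genes 13 were lower and 3 higher in the p53 het cultures, and of all genes 26.3% were called, 11.8% lower and 14.5% higher. The median log2 difference was −0.89 over the 32 genes and 0.03 over all genes. The p53 het group holds 2 tumours whose spread was taken to be that of the other cultures. No p53 het array shares a date mark with a p53 wt line, so genotype and date cannot be told apart.

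The largest falls were in genes that the p53 wt lines and all NSC read well above the guide. Gpm6a was 2.55 and 2.36 in tumours 27 and B, against a median of 8.67 in the wt lines, none of which overlapped (−6.30 ± 0.29, limma adjusted p = 8.09e-11). Kcnc1 was 2.09 and 2.07 against 7.33 to 8.96 (−5.95 ± 0.31, limma adjusted p = 4.24e-10). Both genes were at background on all 6 p53 het arrays, and further probe sets also fell, by 5.56 on the log2 scale for Gpm6a and by 2.96 and 2.73 for Kcnc1, whose remaining probe set read 3.82 against 3.70.

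Thy1 was 2.54 and 2.27 against 3.54 to 8.84 (−4.88 ± 0.90, limma adjusted p = 5.42e-04), below even line 49. Camk2b was 3.06 and 2.60 against 4.67 to 6.71 (−2.71 ± 0.48, limma adjusted p = 3.65e-04). Gap43 and Map2, which read high in all other groups, were lower here too. Gap43 was 8.14 and 7.29 against 8.79 to 9.82 (−1.60 ± 0.30, limma adjusted p = 5.74e-04), and Map2 was 8.76 and 8.08 against 9.57 to 10.20 (−1.32 ± 0.17, limma adjusted p = 2.31e-05).

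The calls of the other 7 lower genes were each lost without 1 of the 2 tumours. Stmn3 (−4.07 ± 0.93), Gad1 (−2.73 ± 0.64), Syt1 (−1.61 ± 0.38), Syp (−1.13 ± 0.27) and Elavl3 (−0.91 ± 0.27) had limma adjusted p between 0.0032 and 0.0185 and lost the call without tumour 27, at between 0.0723 and 0.21. Their differences were then −3.26, −2.28, −1.38, −0.96 and −0.72. Scg3 (−1.68 ± 0.58) and Vamp2 (−0.87 ± 0.20) lost it without tumour B, at −0.53 and −0.45. Scg3 lost it also without wt line 74, 49, 68 or 77 (limma adjusted p up to 0.059). Scg3 was 5.58 in tumour 27, within the range of the wt lines, and 3.29 in tumour B.

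Tubb3 went the other way. It was 5.93 in tumour 27 and 6.73 in tumour B, against 2.69 to 5.69 in the wt lines and 2.73 to 3.98 in all 9 NSC. Averaged over their arrays, both p53 het cultures exceeded every other culture, at 2.88 ± 0.54 against the wt lines (limma adjusted p = 6.09e-04). The lowest single array of tumour 27 read 5.46, below the highest wt line. Both cultures were far below the tissues at 9.27 and higher. Syt4 and Chgb were also called higher (1.59 ± 0.34 and 1.07 ± 0.27, limma adjusted p = 0.00182 and 0.00675). The averages of both genes read under the guide in both cultures, and both lost the call without tumour 27. Single arrays of tumour 27 read above the guide, up to 4.60 for Syt4 and 4.48 for Chgb.

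The p53 het cultures did not carry the high Stmn2, Slc17a6, Snap25 or Dcx of the tissues. Stmn2 was 2.62 and 2.41, Slc17a6 was 1.49 and 1.35, Snap25 was 1.64 and 1.32 and Dcx was 2.48 and 1.79. These are background values. Dcx was not called against the wt lines (−2.34 ± 1.10, limma adjusted p = 0.142).

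Markers of glial precursors moved in both directions in this contrast. Sox10 was 9.59 and 10.53 in the p53 het cultures against 3.73 to 5.48 in the wt lines, Pdgfra was 10.11 and 10.27 against 5.17 to 8.12, and Gpr17 was 8.07 and 8.82 against 2.70 to 5.31. Of the 6 listed markers of oligodendrocyte precursors 3 were higher and 2 lower. The lower ones were Olig1 (mean 11.04 against 11.95) and Olig2 (mean 8.53 against 10.03), and Cspg4 was not called. The summed log2 level of the list was 12.15 to 12.64 against 12.04 to 12.65. Of 6 listed neural stem cell markers 5 were lower, with a summed level of 12.13 to 12.44 against 13.21 to 13.63. Their part in the neuronal differences was not tested.

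**Figure D5:**
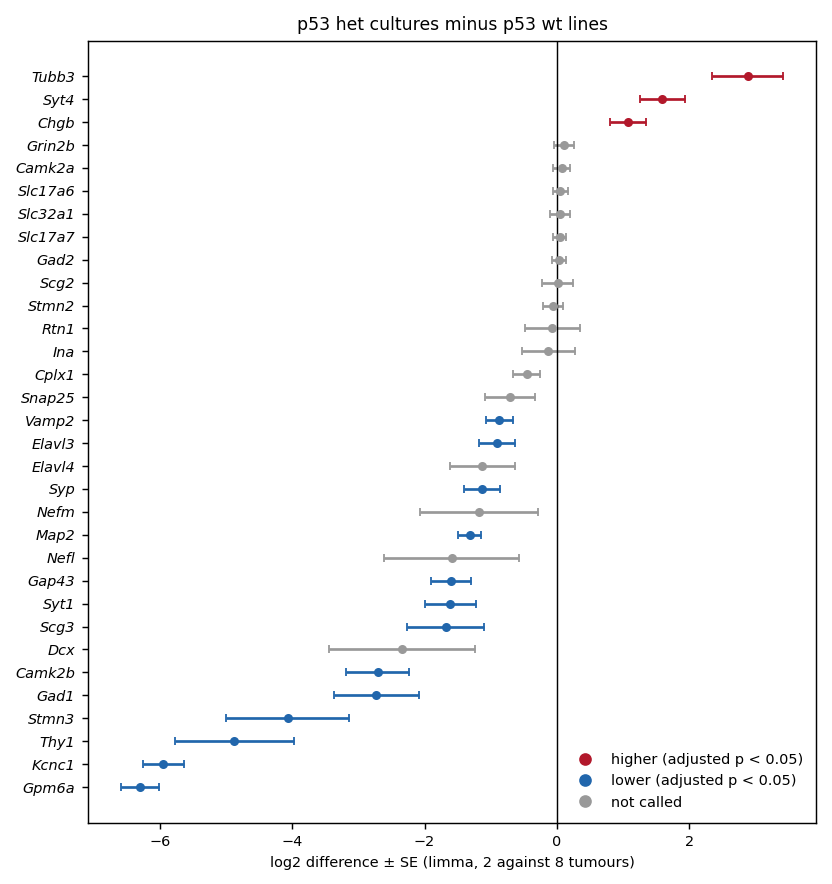
Points give the log2 difference between p53 het cultures and p53 wt lines for 32 genes (horizontal axis, log2 units), with the SE of the limma fit (2 against 8 tumours); colour marks the call at an adjusted p under 0.05. Gpm6a, Kcnc1 and Thy1 lie farthest to the left, at −6.30, −5.95 and −4.88, and Tubb3 farthest to the right at 2.88.

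Against the hindbrain NSC, which also serve the comparison of the wt lines, 16 of the 32 genes were lower and 3 higher in the p53 het cultures. Of all genes 26.8% were called, 13.0% lower and 13.8% higher. Of the 19 calls among the 32 genes, 8 were lost in 1 or more alternatives. Chgb, Elavl3, Gad1, Ina, Snap25 and Syt1 lost theirs without tumour 27, at 0.09, −0.83, −2.29, −1.30, −1.47 and −1.07. Cplx1, Scg3 and Snap25 lost theirs without tumour B, at −0.40, −1.04 and −1.15. Gpm6a was lower by 7.39 ± 0.30 here and by 1.09 ± 0.20 in the wt lines against the same NSC, and Camk2b by 4.95 ± 0.49 and 2.24 ± 0.32. Kcnc1 differed by −6.50 ± 0.32 in the p53 het cultures and by −0.55 ± 0.21 in the wt lines, where it was not called (limma adjusted p = 0.124). Tubb3 was higher by 2.78 ± 0.55 (limma adjusted p = 0.00105). As the p53 het arrays share no date mark with any NSC array, group and date cannot be told apart here either.

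The last comparison set the NSC of the forebrain SVZ against those of the hindbrain. Of the 32 genes 1 was called, Elavl3, which read 5.45 to 5.87 in the 3 SVZ cultures and 4.18 to 5.18 in the 6 hindbrain cultures (0.97 ± 0.16, limma adjusted p = 0.0157). Among all genes 1.71% were called, 0.863% higher and 0.846% lower, and 13 of the 32 genes had an unadjusted p under 0.05. SVZ and hindbrain cultures with the same replicate number deviated together. Same-numbered cultures of the hindbrain regions did not do so throughout (correlations from −0.14 to 0.38), and the labels state no pairing. With the replicate number as a block over all regions, 3 genes were higher and 1 lower. Nefl (2.27, limma adjusted p = 0.043) and Nefm (1.35, limma adjusted p = 0.0471) joined Elavl3, and Map2 was lower (−0.47, limma adjusted p = 0.0202). Nefl read 5.52, 6.29 and 6.65 in the SVZ cultures and 2.85 to 5.45 in the hindbrain cultures, which did not overlap. The Elavl3 call was lost without SVZ culture 1 or 2 (limma adjusted p = 0.0973 and 0.102).

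Other genes of the same machinery were read from written lists. In the p53 wt lines against tissue, where 26.6% of all genes were higher and 23.1% lower, 15 of 18 further presynaptic genes fell and 0 rose. Sv2b, a vesicle glycoprotein, fell from 8.41 to 1.85 (−6.56 ± 0.14, limma adjusted p = 4.97e-10), and Unc13a, which primes vesicles for fusion, fell from 5.23 to 2.45 (−2.78 ± 0.17, limma adjusted p = 4.73e-07). Of 20 postsynaptic genes and receptors 5 were higher and 5 lower, shares near those of all genes. The scaffold gene Dlg2 (−4.70 ± 0.14) and the AMPA receptor gene Gria1 (−4.34 ± 0.33) fell, while Gria3 (1.12 ± 0.17), of the same receptor family, and the adhesion gene Nlgn2 (0.67 ± 0.13) rose.

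Of 11 further channel genes 8 fell and 2 rose. Cacna1b, a presynaptic calcium channel, fell by 2.78 ± 0.12, and Kcna2, a potassium channel, rose by 1.66 ± 0.37. Of 19 further cytoskeletal and RNA-binding genes 13 fell and 3 rose, with Celf4 at −5.69 ± 0.15 and Nova1 at 0.87 ± 0.12. Of 11 dense-core vesicle genes 6 fell and 0 rose, with Cadps2, which primes granules, at −6.40 ± 0.32.

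In the p53 het cultures against the wt lines, where 11.8% of all genes were lower and 14.5% higher, 4 of the 18 presynaptic genes were lower and 1 higher, and 5 of the 20 postsynaptic genes were lower and 0 higher. Gria2, the AMPA receptor subunit that limits calcium entry, was 3.09 against 7.89 (−4.80 ± 0.63, limma adjusted p = 2.15e-05). Pclo, a scaffold of the presynaptic active zone, was 2.07 against 4.78 (−2.71 ± 0.26, limma adjusted p = 6.25e-07), and Crmp1, a protein of axon guidance, was 3.61 against 6.74 (−3.13 ± 0.32, limma adjusted p = 1.20e-06). L1cam, an axonal adhesion protein, was higher at 4.62 against 2.81 (1.80 ± 0.28), and so was Npy, the gene of neuropeptide Y, at 4.90 against 3.20 (1.70 ± 0.24).

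The repressor gene Rest, its partners and the splicing regulators Ptbp1 and Ptbp2 formed a further list of 15 measured genes. Of these, 5 were higher and 6 lower in the p53 wt lines than in tissue, beside 26.6% and 23.1% of all genes. Rest itself read 2.62 to 3.41 in the 8 tissues, all under the guide, and 5.53 to 6.47 in the 8 lines (2.96 ± 0.11, limma adjusted p = 1.14e-08). It averaged 5.94 in the hindbrain NSC, 5.98 in the SVZ NSC and 6.89 in the p53 het cultures, where it was higher than in the wt lines by 0.89 ± 0.25 (limma adjusted p = 0.0128). Rcor2, a corepressor of the same complex, went the other way, at 7.51 in tissue and 5.74 in the lines (−1.77 ± 0.17, limma adjusted p = 1.54e-05). Ptbp2, a splicing factor of young neurons, was 9.60 in tissue and 8.70 in the lines (−0.90 ± 0.11).

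Promoter sequences from RefSeq (build GRCm38.p6, 250 bases before to 50 after the start) were at hand for 23 of the 33 genes. The start is that of a transcript, and a gene can have several such windows or, as Kcnc1 and Gad2 here, one that lies downstream of the outermost annotated start of the gene. A gene was counted where any of its windows held a match, whereas the shares of all promoters count single windows. A gene with several windows has more chances to match, so counts and shares cannot be compared directly. The windows were searched on both strands for the element of REST, as AGCACC, 2 free bases and GGACAG. All 12 fixed bases were found in 17 of 32851 promoters, which is 0.0517%, and among the 33 genes in Gad2. With 1 difference allowed, 0.353% of all promoters and 3 of the 23 genes matched, namely Gad2, Grin1 and Slc17a6, and with 2 allowed the share was 4.46% and the genes were the same 3. The left part AGCACC alone was in 16.2% of promoters and in 7 of the 23 genes, and GGACAG alone in 22.2% and in 12. Both promoters printed here are of genes that read at background in every culture: Slc17a6, lost from the tissue values, at chr7:51621580-51621879 (plus strand, match at bases 35 to 48 after the start, on the minus strand, with 1 difference), and Gad2, silent in tissue as well, at chr2:22622077-22622376 (plus strand, match from base −163 to −150). Kcnc1 at chr7:46396218-46396517 (plus strand), kept in the wt lines and all NSC, is shown beside them without such a match. Capitals mark the REST match in Slc17a6 and Gad2 and, in Kcnc1, the part TGACG of the cAMP element, which 20.8% of all promoters and 9 of the 23 genes hold.
Slc17a6: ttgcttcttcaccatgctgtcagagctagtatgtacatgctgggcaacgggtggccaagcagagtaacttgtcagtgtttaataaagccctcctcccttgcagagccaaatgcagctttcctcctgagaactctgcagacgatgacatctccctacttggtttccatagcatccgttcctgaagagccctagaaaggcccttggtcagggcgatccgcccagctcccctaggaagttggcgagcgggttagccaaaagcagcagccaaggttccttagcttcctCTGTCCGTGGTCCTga
Gad2: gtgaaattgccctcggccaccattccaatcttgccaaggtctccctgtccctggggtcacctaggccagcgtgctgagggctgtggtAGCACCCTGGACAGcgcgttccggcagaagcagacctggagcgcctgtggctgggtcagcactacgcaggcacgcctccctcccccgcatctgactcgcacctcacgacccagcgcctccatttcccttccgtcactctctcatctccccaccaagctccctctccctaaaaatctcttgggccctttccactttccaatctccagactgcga
Kcnc1: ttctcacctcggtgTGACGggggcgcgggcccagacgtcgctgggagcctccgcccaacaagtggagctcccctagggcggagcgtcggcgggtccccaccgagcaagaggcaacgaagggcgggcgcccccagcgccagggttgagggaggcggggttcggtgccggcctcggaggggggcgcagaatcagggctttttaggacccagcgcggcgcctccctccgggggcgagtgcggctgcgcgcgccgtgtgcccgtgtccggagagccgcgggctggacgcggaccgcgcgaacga

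The E-box CAGATG, a sequence bound by proneural factors, was in 17.2% of all promoters and in 5 of the 23 genes, Gad2 and, in a further window that is not printed, Slc17a6 among them. The E-box CAGCTG was in 16.3% and in 6, Elavl3, Ina and Chgb among them. Here too the shares count windows and the members count genes. These matches are letters in a window and say nothing of binding in these cells.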

How the data were processed

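RNA of mouse tissue and cultures was hybridised to 31 1-colour Affymetrix arrays, which gave 27 samples. The deposited values are log2 intensities after RMA, per the submitters' processing notes, and the base was inferred from their range (0.417 to 12.924). RMA equalises array distributions, so a global shift in RNA cannot be seen. Of 45101 probe sets, 34958 name 1 gene and gave 18194 genes, each read from its brightest probe set. The 3 technical arrays of each p53 het tumour were averaged. The number of arrays limits the precision.

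Comparisons used limma 3.58.1 in R 4.3.3 (lmFit, eBayes) over all 18194 genes, with Benjamini-Hochberg adjustment at 0.05. Lines and matched tissues were fitted with the tumour as a block. Comparisons of tumour cultures with each other or with hindbrain NSC used 1 fit over 19 cultures. Tissue against hindbrain NSC was fitted over 17 samples, the tissues and all NSC. SVZ against hindbrain NSC was fitted over the 9 NSC alone, with 6 residual degrees of freedom. Steps were tested on simulated data. Tables and plots used Python 3.11.15, pandas 2.3.3, numpy 2.4.6 and matplotlib 3.10.9. Named genes were the measured members and, from each further list, called genes with the smallest p (up to 4 in the main direction, 2 in the other); cell type markers beside them were chosen after their values were seen. Members and lists were chosen with earlier results of these data known.

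The labels number the NSC replicates but state no pairing between regions. The deviations of the 6 same-numbered pairs of SVZ and hindbrain NSC correlated at 0.17 to 0.34. Those of the 3 same-numbered pairs of IV ventricle and cerebellum ran from −0.14 to 0.38. The labels call the NSC arrays biological replicates. Nothing states that they came from separate animals, so p-values there may not measure the spread between animals. The last part of array names reads like a date; it was treated as a date mark, and the labels do not say what it dates. Alternatives covered scaling, probe set choice, dim genes, fold minimum, blocks, date marks and leaving out each sample.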

Additional observations from a re-analysis of the deposited data

Results flagged for a closer look

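In 64 groups of samples of a gene the highest or lowest value was tested for a gap to the others; chance flags about 1 in 20 groups, and 8 stood apart. Line 49 read 5.69 for Tubb3, where the other p53 wt lines read 2.69 to 3.81, and 3.54 for Thy1, where they read 6.82 to 8.84. Line 77 read 3.21 for Syt4 (others 1.52 to 2.17) and 2.52 for Scg2 (others 1.39 to 1.88), all under the guide. Line 83 read 3.41 for Stmn3 (others 6.63 to 8.54), and line 91 read 3.67 for Elavl4 (others 5.23 to 6.44). Line 68 read 4.03 for Ina (others 2.05 to 2.82). Among the tissues, tumour 91 had the lowest Tubb3, at 9.27 (others 10.10 to 10.79).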

How the results depend on the processing

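Of 1586 values of called genes under alternatives, 1491 kept direction and side of the threshold, 94 lost the call and 1 reversed: Slc32a1 in tissue against hindbrain NSC, at 0.02 with the mean of all probe sets. With a 2-fold minimum, 2762 genes were called for lines against tissue, 352 for lines against hindbrain NSC, 1810 for p53 het against wt, 1980 for p53 het against NSC, 2906 for tissue against NSC and 156 for SVZ against hindbrain, where 0 of the 32 genes were then higher. The 4 tumours without a shared date mark gave 5935 genes for lines against tissue, with 1 of the 32 higher. For lines against NSC, the lines of 1 date mark gave 1003 genes and cerebellar NSC as reference 673. With dim genes left out, 1 of the 32 was higher in p53 het cultures than in wt lines and 1 than in NSC, and SVZ against hindbrain gave 203 genes. That comparison gave 435 genes with the replicate block (3 of the 32 higher, 1 lower), 518 with the date mark as a block (4 higher, 2 lower) and 158 within the largest shared mark; quantile normalization and a trended robust prior each gave 1 lower. The replicate block changed Nefl, Nefm and Map2 there. With the guide at the 99th percentile, 4 genes were above it in both p53 het cultures. The cause of these changes was not tested.

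Leaving out 1 sample or tumour at a time gave 8277 to 8663 genes for lines against tissue (members higher 3 to 3, lower 18 to 21), 1060 to 1896 for lines against NSC (0 to 0, 3 to 5), 3588 to 4980 for p53 het against wt (1 to 3, 8 to 14), 3781 to 4697 for p53 het against NSC (2 to 3, 11 to 16), 8997 to 9448 for tissue against NSC (17 to 20, 3 to 4) and 86 to 396 for SVZ against hindbrain (0 to 4, 0 to 2). Where 1 p53 het tumour remained, it was assumed to vary like the other cultures.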
